A study of Pseudozyma hubeiensis with 12 samples.

Results

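Nitrogen-starved cultures of the basidiomycete yeast Pseudozyma hubeiensis, strain BOT-O, were compared on xylose and on glucose over every locus of the deposited table. The comparison used 6 of the 12 RNA libraries, namely the 3 from starved xylose cultures and the 3 from starved glucose cultures, chosen by their labels and not by any measured value. All 4 groups of the study share the strain and a yeast nitrogen base medium whose only sugar was xylose or glucose and whose nitrogen came as ammonium sulfate, set to a starting ratio of carbon to nitrogen of 80 g/g. Starved cultures were taken at time point 2, and exponentially growing cultures of the same 2 sugars at time point 1, with biological replicates A, B and C in each group. The other 6 libraries, from exponential growth, served to show where the sugar difference of starvation differed from that of growth. The labels give no hours, optical density or residual sugar, so the sugar and how far each culture had gone into starvation cannot be told apart.

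P. hubeiensis secretes mannosylerythritol lipids (MEL), glycolipid surfactants that smut fungi and their relatives make from sugar when nitrogen runs out. Yeasts that use xylose reduce it to xylitol, oxidize that to xylulose, phosphorylate it and pass it through the non-oxidative pentose phosphate pathway, whereas glucose is phosphorylated directly and enters glycolysis. When nitrogen is lacking, such yeasts generally lower the synthesis of ribosomes, scavenge nitrogen from purines, amino acids and protein, and divert carbon to lipids.

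Of 6689 loci, 5805 had enough reads to be tested, 615 had no read in any of the 12 libraries and 269 had reads but too few for a test. Total counts were 18571189, 23361818 and 27322486 in starved xylose libraries A, B and C, against 15130232, 16894818 and 16670212 in starved glucose libraries A, B and C. Within a group, starved libraries correlated at a Spearman coefficient of 0.979 to 0.992 across genes and differed by more than counting noise, so each was counted as a separate sample. Starved glucose C lay nearest to the xylose libraries, with Spearman coefficients of 0.949 to 0.955 against 0.922 to 0.942 for starved glucose A and B. Among the called genes described below, C was the glucose library closest to the xylose mean for 1355 (55.4%), B for 592 (24.2%) and A for 499 (20.4%). Some loci had no read in 1 library while the group's other replicates averaged at least 10 counts. They numbered 31, 39 and 21 in starved glucose A, B and C. In starved xylose A, B and C the numbers were 1, 4 and 1. Levels are counts per 1000000 (CPM) of each library's scaled total, so they are shares of polyadenylated RNA, and a gene with a larger share cannot be told apart from a gene held constant while the total fell.

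Starved xylose cultures differed from starved glucose cultures at 2446 of the 5805 genes tested (42.1%), of which 1333 (23.0%) were higher and 1113 (19.2%) lower on xylose at an adjusted p under 0.05. Most differences were small. The median log2 fold change over all genes tested was -0.00, with quartiles at -0.24 and 0.30, and 320 called genes (5.51%) changed at least 2-fold, 242 (4.17%) higher and 78 (1.34%) lower on xylose. At least 4-fold, 70 were higher and 33 lower, and at least 10-fold, 32 were higher and 22 lower. The 3 xylose and 3 glucose libraries did not overlap for 2576 genes (44.4% of those tested), with xylose higher for 1381 (23.8%) and glucose higher for 1195 (20.6%). Of 1257 tested genes whose product the table leaves as hypothetical or uncharacterized, 267 were higher and 235 lower on xylose. Without starved glucose C the count of called genes was 2752, and without starved xylose A it was 2130. A fit of the 6 starved libraries alone called 1613 genes, 902 higher and 711 lower on xylose. The shares over all genes given below are those of the fit over all 12 libraries.

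**Figure D1:**
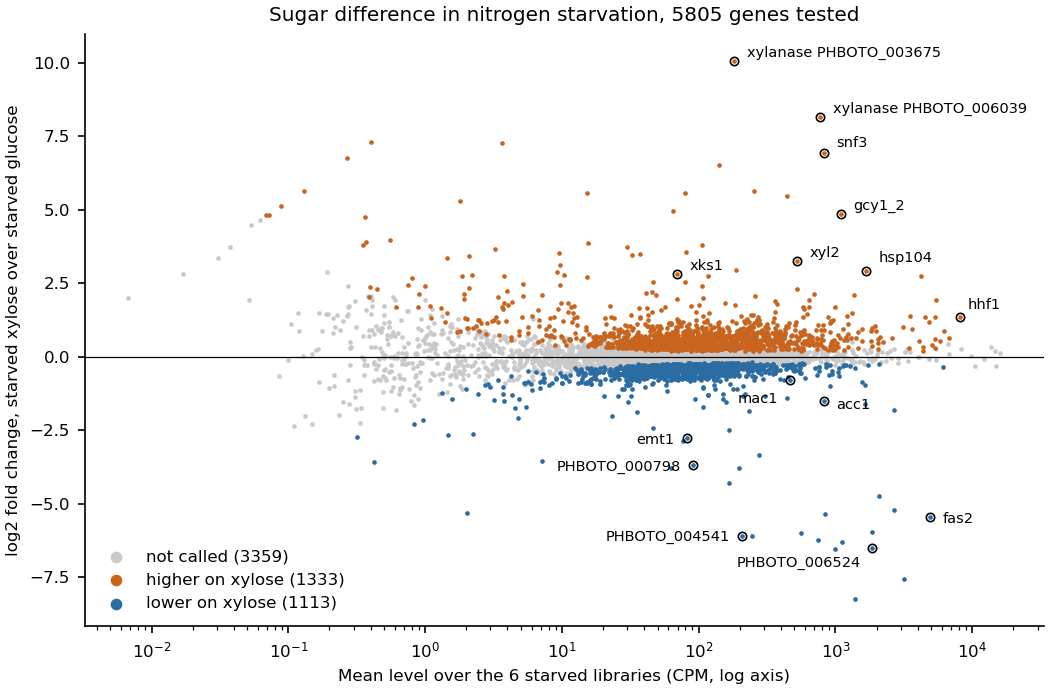
Each point is 1 of the 5805 genes tested; the x axis is its mean level over the 6 starved libraries (CPM, log axis) and the y axis its log2 fold change, starved xylose over starved glucose. Orange genes were called higher on xylose (1333), blue genes lower (1113) and grey genes not called, with the xylanases, snf3 and gcy1_2 at the top and fas2 and PHBOTO_006524 at the bottom right.

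Of the genes that carry xylose into metabolism, the xylitol dehydrogenase xyl2 and the xylulose kinase xks1 were much higher in starved xylose cultures, while the annotated xylose reductase xr1 was lower. Outside that list, a putative NADP+-dependent glycerol dehydrogenase, gcy1_2, was also much higher. The xylitol dehydrogenase xyl2, which oxidizes xylitol to xylulose, had 945, 1007 and 894 CPM in starved xylose libraries A, B and C, against 108, 88.5 and 101 CPM in starved glucose libraries A, B and C. All 3 xylose libraries lay above all 3 glucose libraries, and the log2 fold change was 3.26 ± 0.10 (SE, adjusted p = 1.73e-13). The kinase xks1, which phosphorylates xylulose, had 118, 129 and 119 CPM in starved xylose, against 10.6, 21.9 and 19.6 CPM in starved glucose. Its groups were likewise separate, at a log2 fold change of 2.81 ± 0.17 (SE, adjusted p = 3.4e-09). The dehydrogenase gcy1_2 had 2078, 2280.1 and 1995 CPM in starved xylose and 75.9, 65.1 and 76.1 CPM in starved glucose (log2 fold change 4.87 ± 0.11, SE, adjusted p = 1.48e-14). Its namesake in Saccharomyces cerevisiae belongs to the aldo-keto reductases, the family that also holds xylose reductases, and no substrate is assigned here.

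The annotated xylose reductase xr1, which by its name makes xylitol from xylose, went the other way. It had 78.7, 88.6 and 84.6 CPM in starved xylose libraries and 174, 119 and 123 CPM in starved glucose libraries. Every glucose library was above every xylose library, with a log2 fold change of -0.72 ± 0.13 (SE, adjusted p = 0.000451). The second reductase, xr3, overlapped between the sugars, at 40.1 ± 4.67 CPM in starved xylose and 45.4 ± 5.41 CPM in starved glucose (SD, n = 3 each; adjusted p = 0.243). In all, 2 of the 9 xylose and pentose genes were higher, 1 was lower and 6 were not called, and their median log2 fold change was -0.16. Over all genes, 23.0% were higher and 19.2% lower.

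The pentose phosphate pathway, which receives xylulose phosphate and also supplies NADPH, showed little difference in starvation. Of its 11 genes tested, 2 were higher and 2 lower on xylose, with a median log2 fold change of -0.15, beside 23.0% higher and 19.2% lower over all genes. The transaldolase PHBOTO_006510, of the non-oxidative branch, had 93.9, 106 and 100.2 CPM in starved xylose, against 30.7, 52.6 and 56.4 CPM in starved glucose. Its groups did not overlap, and the log2 fold change was 1.10 ± 0.16 (SE, adjusted p = 5.67e-05). The transaldolase nqm1 overlapped between the groups, at 5216 ± 367 CPM in starved xylose and 5612 ± 764 CPM in starved glucose (SD, n = 3 each; adjusted p = 0.439). Ribulose-phosphate 3-epimerase rpe1, which interconverts the pathway's 5-carbon sugar phosphates, was lower on xylose at 133 ± 11.3 CPM, against 206 ± 34.7 CPM on glucose (SD, n = 3 each; log2 fold change -0.64 ± 0.11, SE, adjusted p = 0.000234). For zwf1 and gnd2, the NADPH-forming dehydrogenases of the oxidative branch, the log2 fold changes were -0.15 and -0.21, and neither was called (adjusted p = 0.151 and 0.0544), although both were called lower without starved glucose C (adjusted p = 0.0345 and 0.043) and by DESeq2 (adjusted p = 0.0268 and 0.00448). The gene gnd2 was called lower as well with DESeq2 size factors, with upper-quartile scaling and without starved xylose B (adjusted p = 0.032, 0.0412 and 0.0426). The count of lower pathway genes was 5 without starved glucose C and 1 without starved xylose C, starved glucose A or starved glucose B.

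Sugar transporters and sensors had 11 of 25 tested higher and 3 lower on xylose, beside 23.0% and 19.2% of all genes, with a median log2 fold change of 0.59 and 8 of the 11 changed at least 2-fold. The gene annotated as snf3, which in S. cerevisiae encodes a sensor of low glucose built like a transporter, had 1501, 1615 and 1804 CPM in starved xylose, against 13.2, 13.4 and 13.5 CPM in starved glucose. Each group was tight, and the groups were far apart: the log2 fold change was 6.94 ± 0.12 (SE, adjusted p = 6.13e-16), or 123-fold. The galactose transporter gal2 had 46.0, 59.5 and 61.4 CPM in starved xylose and 2.56, 5.80 and 4.03 CPM in starved glucose, again with no overlap (log2 fold change 3.75 ± 0.21, SE, adjusted p = 1.63e-09). The maltose permease mal31 was higher on xylose at a low level, 3.23 ± 1.08 CPM against 0.474 ± 0.250 CPM on glucose (SD, n = 3 each; log2 fold change 2.75 ± 0.36, SE). The putative transporter stl1_2 had 36 reads in the 3 starved xylose libraries and none in the 3 starved glucose libraries, which makes it at least 9.15-fold higher on xylose when 3 counts are set for the glucose group as a whole. That bound does not cover the loci without reads in single starved glucose libraries, given above. The hexose transporter hxt5 overlapped between the groups, at 1937 ± 317 CPM on xylose and 1612 ± 407 CPM on glucose (SD, n = 3 each; adjusted p = 0.185), though without starved glucose C it was called higher (adjusted p = 0.0267). Counts for gene copies with a numbered suffix, such as gcy1_2 and stl1_2, may share reads with near-identical copies.

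**Figure D2:**
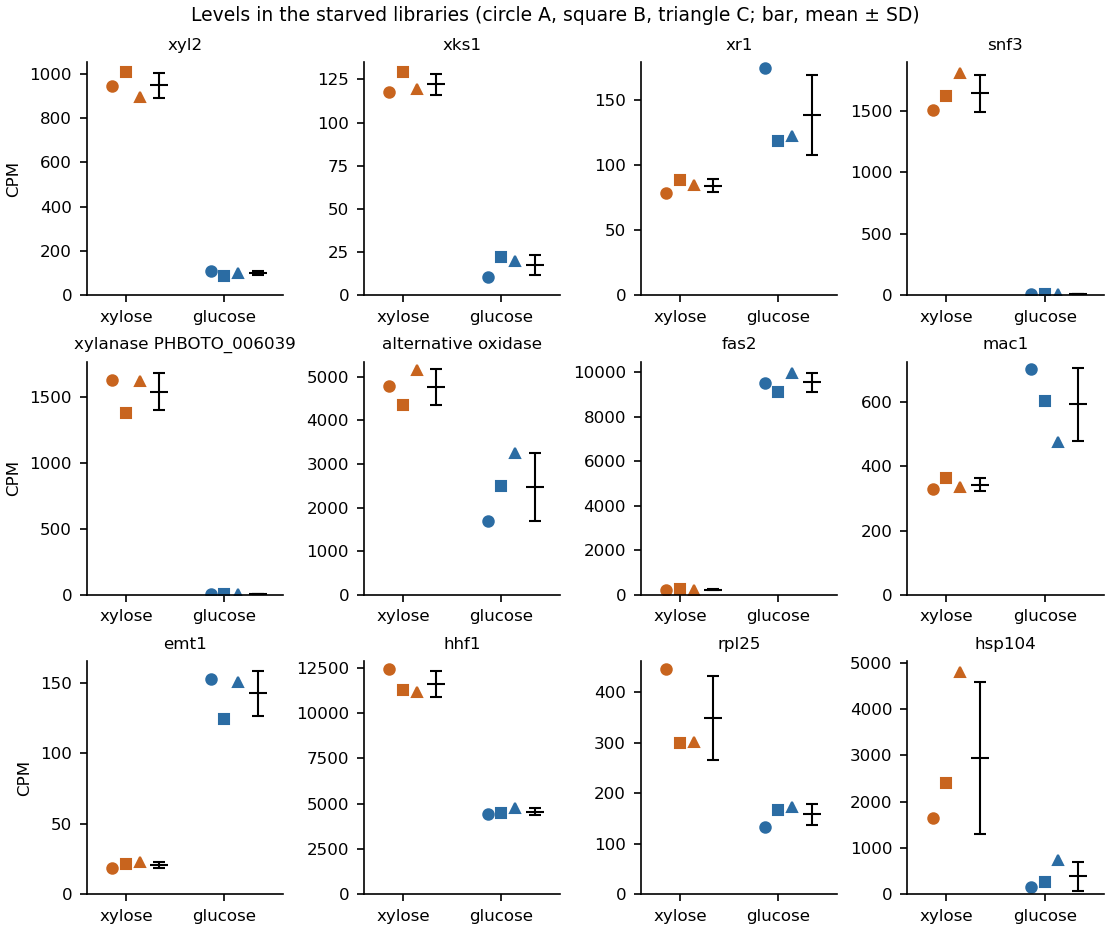
Levels (CPM, linear axes from 0) of 12 genes in the starved xylose libraries (orange, left) and starved glucose libraries (blue, right), with circles, squares and triangles for replicates A, B and C and a bar for the mean ± SD (n = 3). The 3 xylose libraries lie above the 3 glucose libraries for xyl2, xks1, snf3, the xylanase, the alternative oxidase, hhf1, rpl25 and hsp104, and below them for xr1, fas2, mac1 and emt1.

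Secreted enzymes that break down plant cell walls were among the largest rises on xylose, although the labels name no plant polymer in the medium. Of 51 tested hydrolases, cutinases and expansins, 25 were higher and 5 lower, beside 23.0% and 19.2% of all genes, 18 of the 25 changed at least 2-fold, beside 4.17% of all genes, and the median log2 fold change was 0.36; without starved xylose C, 3 were lower. The endo-1,4-beta-xylanase PHBOTO_006039, which cuts the xylan backbone, had 1622, 1374 and 1618 CPM in starved xylose, against 3.45, 6.89 and 5.67 CPM in starved glucose. That was a 288-fold difference with no overlap (log2 fold change 8.17 ± 0.19, SE, adjusted p = 2.08e-14). A second xylanase, PHBOTO_003675, had 345, 400.0 and 349 CPM in starved xylose and was nearly silent in starved glucose at 0.256, 0 and 0.756 CPM. Its log2 fold change of 10.07 ± 0.27 (SE, adjusted p = 5.48e-14) rests on few reads in glucose.

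Some enzymes that act on the side chains of xylan or on pectin were also far higher on xylose. The alpha-L-arabinofuranosidase PHBOTO_004942, which removes arabinose from xylan and arabinan, had 268, 306 and 264 CPM in starved xylose and 2.24, 3.20 and 3.71 CPM in starved glucose (log2 fold change 6.51 ± 0.17, SE, adjusted p = 3.1e-14). The polygalacturonase pgu1, which cuts pectin, had 524, 468 and 508 CPM in starved xylose, against 7.61, 13.2 and 9.32 CPM in starved glucose (log2 fold change 5.63 ± 0.17, SE, adjusted p = 3.44e-13). Neither gene's groups came near each other. Of 8 xylan and arabinan enzymes tested, 4 were higher, 1 lower and 3 not called, and of 6 pectin enzymes, 2 were higher, 1 lower and 3 not called. These counts, and those of cutinases and expansins below, stand beside 23.0% higher and 19.2% lower over all genes. With so few genes, the pectin enzyme and cutinase counts cannot be set apart from those shares. Of 5 cutinases, which hydrolyse the polyester of the plant surface, 2 were higher and 1 lower, one of the higher being PHBOTO_005903 at 126 ± 6.65 CPM on xylose and 3.98 ± 2.17 CPM on glucose (SD, n = 3 each; log2 fold change 4.97 ± 0.28, SE). A carboxylic ester hydrolase, PHBOTO_004937, had 786, 929 and 867 CPM on xylose and 21.9, 20.4 and 16.2 CPM on glucose (log2 fold change 5.46 ± 0.14, SE). Expansins, which loosen cellulose without cutting it, were higher for 6 of 8 tested, and PHBOTO_001076 had 1101, 943 and 1354 CPM on xylose, against 215, 185 and 367 CPM on glucose (log2 fold change 2.15 ± 0.20, SE).

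Many of the steepest losses on xylose lay in 1 stretch of neighbouring locus numbers. All 14 loci from PHBOTO_006514 to PHBOTO_006527, consecutive by locus number, were at least 2-fold lower in starved xylose, with a median log2 fold change of -5.96, and they made up 14 of the 78 genes that were at least 2-fold lower (17.9%). Their summed level was 755, 912 and 754 CPM in starved xylose libraries A, B and C, against 45814, 40343 and 38919 CPM in starved glucose libraries A, B and C. They thus held 0.0807% of the scaled total in starved xylose and 4.17% in starved glucose. For every one of the 14 loci the glucose libraries were all above the xylose libraries, beside 20.6% of all genes tested. The loci were picked by their call and fold change in this same comparison, so their direction and separation are not separate evidence. Of all called genes, 90.7% had groups that did not overlap. A run was defined as at least 4 called genes in 1 direction, each at least 2-fold changed, with no more than 1 other tested locus between them, and locus number is the only evidence of position used here. The other run so found held 4 genes higher on xylose among 7 loci from PHBOTO_001074 to PHBOTO_001081, with a median log2 fold change of 1.17, among them a cytochrome P450 and the expansin PHBOTO_001076.

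By annotation, the stretch holds a fatty acid synthase subunit, P450 enzymes, a glycosyltransferase, an acetyltransferase and a transporter. The gene named fas2, annotated as a fatty acid synthase subunit beta, had 205, 235 and 211 CPM in starved xylose and 9535, 9138 and 9992 CPM in starved glucose. The gap was 44.1-fold and far outside the spread of either group (log2 fold change -5.46 ± 0.11, SE, adjusted p = 3.07e-15). The glycosyltransferase PHBOTO_006524, an enzyme class that attaches sugars, had 39.5, 46.1 and 35.2 CPM in starved xylose, against 4303, 3464 and 3167 CPM in starved glucose (log2 fold change -6.50 ± 0.16, SE, adjusted p = 2.18e-14). Of 2 genes named after cytochrome P450 enzymes, which hydroxylate lipids, erg11_3 had 17.3, 24.3 and 22.6 CPM in starved xylose and 2435, 1856 and 1644 CPM in starved glucose (log2 fold change -6.52 ± 0.18, SE). The other, PHBOTO_006516, annotated as an isotrichodermin hydroxylase, averaged 59.6 ± 9.14 CPM on xylose and 3664 ± 320.1 CPM on glucose (SD, n = 3 each).

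Further members were the acetyltransferase PHBOTO_006519 (log2 fold change -6.11 ± 0.15, SE), the ABC-type transporter ste6_3 (-5.33 ± 0.18), the reductase gre2_2 (-6.21 ± 0.17), the methylsterol monooxygenase-like erg25_2 (-4.73 ± 0.12) and, at the edge of the stretch, the aminopeptidase ape3 (-1.86 ± 0.16). The remaining 5 loci have no named product. The hypothetical protein PHBOTO_006527 had the lowest fold change of the stretch, with 32.6, 37.9 and 30.9 CPM in starved xylose and 6999, 6375 and 5676 CPM in starved glucose (log2 fold change -7.55 ± 0.14, SE, adjusted p = 1.91e-15). In the smut Ustilago maydis a cluster with a fatty acid synthase, P450 enzymes, a glycosyltransferase, an acyltransferase and a transporter makes the secreted glycolipid ustilagic acid, which is background only, since the table assigns no product to these loci. Outside the stretch, the hypothetical protein PHBOTO_001497, picked after its values were seen because its fall was the largest of all genes, had 9.15 ± 1.42 CPM in starved xylose and 2762 ± 222 CPM in starved glucose (SD, n = 3 each).

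**Figure D3:**
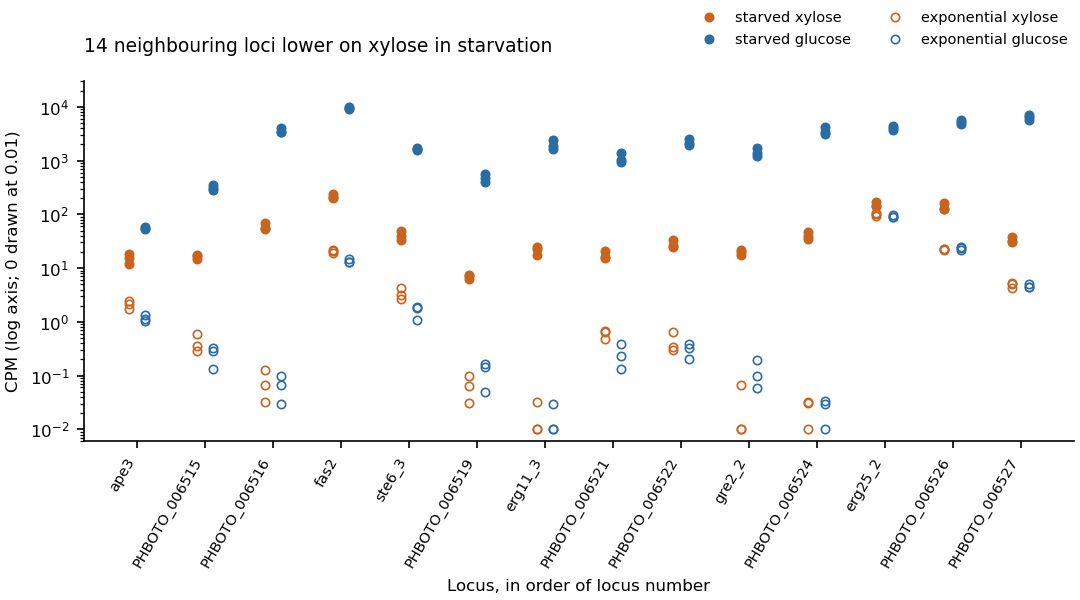
Level of the 14 consecutive loci from ape3 to PHBOTO_006527 in each library (CPM, log axis, with 0 drawn at 0.01), filled symbols for starvation and open symbols for exponential growth, orange for xylose and blue for glucose. In starvation the glucose libraries lie above the xylose libraries at every locus, while in exponential growth the sugars lie close together at most loci.

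The 5 genes of MEL synthesis were all lower in starved xylose, with a median log2 fold change of -0.80, beside 19.2% of all genes tested. Their summed level was 532, 623 and 569 CPM in starved xylose libraries A, B and C, against 1261, 1129 and 1002 CPM in starved glucose libraries A, B and C. The mannosyltransferase emt1, which joins mannose to erythritol as the first step, fell furthest, with 18.7, 21.1 and 23.1 CPM in starved xylose and 153, 124 and 151 CPM in starved glucose (log2 fold change -2.76 ± 0.13, SE, adjusted p = 8.16e-11). The acyltransferase mac2, which adds a fatty acid chain, had 50.3, 58.1 and 44.5 CPM in starved xylose, against 128, 155 and 127 CPM in starved glucose (log2 fold change -1.42 ± 0.12, SE). For these genes, and for the other acyltransferase mac1, no xylose library reached the lowest glucose library.

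The remaining MEL genes changed less. The acyltransferase mac1 had 329, 365 and 336 CPM in starved xylose and 703, 603 and 475 CPM in starved glucose (log2 fold change -0.79 ± 0.12, SE, adjusted p = 7.35e-05). The acetyltransferase mat1, which acetylates the mannose, was lower by a log2 fold change of -0.80 ± 0.11 (SE), and the exporter mmf1 by -0.62 ± 0.12 (SE, adjusted p = 0.000758). The genes mat1, mmf1, mac1, emt1 and mac2 carry consecutive locus numbers, from PHBOTO_003088 to PHBOTO_003092. All 5 calls held under every other scaling, tool, filter, sample set and block tried and without each single library; 2 of the 5, emt1 and mac2, also met a 2-fold requirement.

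Genes of fatty acid synthesis and NADPH supply changed in both directions. Acetyl-CoA carboxylase acc1, which makes malonyl-CoA, had 429, 405 and 447 CPM in starved xylose, against 1192, 1212 and 1225 CPM in starved glucose (log2 fold change -1.50 ± 0.09, SE, adjusted p = 2.38e-09). ATP-citrate lyase acl1, which makes cytosolic acetyl-CoA from citrate, had 1139, 1053 and 1149 CPM in starved xylose and 2251, 2088 and 2172 CPM in starved glucose (log2 fold change -0.96 ± 0.09, SE). Both genes were lower in every xylose library than in any glucose library. In the opposite direction, the fatty acid desaturase ole1 was higher on xylose, at 1884 ± 309 CPM, against 1036 ± 186 CPM on glucose (SD, n = 3 each; log2 fold change 0.86 ± 0.14, SE). The mitochondrial malic enzyme mae1, which releases pyruvate from malate, had 1373, 1202 and 1323 CPM in starved xylose and 357, 553 and 743 CPM in starved glucose (log2 fold change 1.24 ± 0.20, SE, adjusted p = 0.000202).

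Of 12 genes of fatty acid synthesis and NADPH supply, 4 were higher and 4 lower, and this and the next lists stand beside 23.0% higher and 19.2% lower over all genes. The 4 lower include fas2 of the stretch above. A further gene annotated as a fatty acid synthase subunit beta, fas1, was called lower by a small margin, and the call was lost without starved xylose A, starved xylose B or starved glucose C (adjusted p = 0.0444 with all libraries, and 0.0886, 0.185 and 0.184 without them). The fas1 call was also lost in the fit of the 6 starved libraries and with the replicate block (adjusted p = 0.0879 and 0.0523). Genes of triacylglycerol and lipid droplets had 7 of 13 lower and 2 higher, with a median log2 fold change of -0.23; the lower count was 4 in a fit of the 6 starved libraries alone, and the higher count was 1 without starved xylose C or without starved glucose B. Diacylglycerol acyltransferase dga1, which makes triacylglycerol, averaged 75.3 ± 5.35 CPM on xylose and 108 ± 16.2 CPM on glucose (SD, n = 3 each; log2 fold change -0.51 ± 0.11, SE), and the lipid droplet phospholipase lpl1 had a log2 fold change of -0.67 ± 0.09 (SE). The droplet coat protein perilipin PHBOTO_004628 overlapped, at 2301 ± 361 CPM on xylose and 2062 ± 196 CPM on glucose (SD, n = 3 each; adjusted p = 0.266). Beta-oxidation and peroxisome genes had 7 of 51 higher and 15 lower with a median log2 fold change of -0.19; the lower count was 9 without starved xylose B and the higher count 4 without starved glucose A. In ergosterol synthesis 3 of 17 were higher and 3 lower, and 1 of the 3 was erg25_2 of the stretch above. The list of P450 enzymes and of polyketide and peptide synthases had 3 of 17 higher and 4 lower, and 2 lower without starved glucose B. Its lower genes include erg11_3 of the stretch above. The P450 reductase ncp1, which feeds electrons to P450 enzymes, was lower on xylose, at 128 ± 4.38 CPM, against 308 ± 9.63 CPM on glucose (SD, n = 3 each; log2 fold change -1.26 ± 0.08, SE).

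Respiration and gluconeogenesis held several genes that were higher on xylose. The alternative oxidase PHBOTO_002482, which passes electrons to oxygen without pumping protons, had 4793, 4347 and 5156 CPM in starved xylose, against 1681, 2496 and 3243 CPM in starved glucose (log2 fold change 0.95 ± 0.18, SE, adjusted p = 0.000593). Phosphoenolpyruvate carboxykinase pck1, which starts gluconeogenesis from oxaloacetate, had 2923, 2264 and 2712 CPM in starved xylose and 833, 1364 and 1650.5 CPM in starved glucose (log2 fold change 1.04 ± 0.19, SE, adjusted p = 0.000603). In both genes the groups stayed apart, and starved glucose C was the closest of the glucose libraries. Of the 6 genes of gluconeogenesis and the glyoxylate cycle, 2 were higher and 2 lower, beside 23.0% and 19.2% of all genes, and 1 was lower without starved xylose A. Fructose-1,6-bisphosphatase fbp1, the last control point of gluconeogenesis, had a log2 fold change of 0.61 ± 0.16 (SE, adjusted p = 0.0066). The glyoxylate enzyme icl1, isocitrate lyase, was lower on xylose, at 191 ± 13.1 CPM, against 299 ± 36.2 CPM on glucose (SD, n = 3 each; log2 fold change -0.65 ± 0.11, SE).

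The TCA cycle had 8 of 17 genes higher and 1 lower on xylose, beside 23.0% and 19.2% of all genes, with a median log2 fold change of 0.08. The highest rises were in the subunits idh1 and idh2 of NAD-dependent isocitrate dehydrogenase, at 472 ± 17.9 and 638 ± 57.6 CPM on xylose, against 258 ± 31.0 and 386 ± 42.9 CPM on glucose (SD, n = 3 each; log2 fold changes 0.87 ± 0.09 and 0.73 ± 0.09, SE). Oxidative phosphorylation had 16 of 38 higher and 4 lower with a median of 0.20, including 6 of 11 ATP synthase subunits and 2 of 6 cytochrome c oxidase subunits. That higher count was 10 without starved xylose A, and the lower count 2 without starved glucose A. Glycolysis had 2 of 20 genes higher, 6 lower and a median of -0.04, and in the fit of the 6 starved libraries the lower count was 2. Pyruvate kinase cdc19, the last step of glycolysis, was lower on xylose (log2 fold change -0.38 ± 0.09, SE, adjusted p = 0.00412).

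Cytosolic ribosomal protein genes were nearly all higher on xylose. Of 79 cytosolic ribosomal protein genes tested, 72 were higher and none lower in starved xylose, with a median log2 fold change of 0.64, beside 23.0% of all genes higher, and in 72 the groups did not overlap, beside 23.8%. Their summed level was 38793, 31413 and 30066 CPM in starved xylose libraries A, B and C, against 20665, 22520 and 24251 CPM in starved glucose libraries A, B and C. Every xylose library was above every glucose library, and the ratio of means was 1.49. The large subunit gave 41 of 47 higher and the small subunit 30 of 31. Among them rpl25, a protein of the large subunit, had 445, 300.0 and 301 CPM in starved xylose and 134, 167 and 173 CPM in starved glucose (log2 fold change 1.14 ± 0.14, SE, adjusted p = 1.13e-05). The count of higher genes was 65 to 73 when single libraries were left out.

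Ribosome biogenesis and the mitochondrial ribosome had called genes mostly in the same direction, but their counts depended on 1 library. Of 118 ribosome biogenesis genes, 56 were higher and 5 lower, beside 23.0% and 19.2% of all genes, with a median of 0.31; without starved xylose A the higher count was 27. The biogenesis factor ssf2, which acts on the large subunit, had 77.3, 70.2 and 53.9 CPM in starved xylose and 26.8, 31.9 and 39.1 CPM in starved glucose (log2 fold change 1.04 ± 0.14, SE, adjusted p = 3.7e-05). Of 46 mitochondrial ribosomal protein genes, 18 were higher and none lower, with a median of 0.25. Without starved xylose A, 3 were higher and 1 lower, and 1 was lower without starved glucose B or without starved glucose C. Starved xylose A had the highest summed level of that list, 3450 CPM, against 2851 and 2703 CPM in starved xylose B and C and 2509 to 2774 CPM in starved glucose. Translation factors had 3 of 41 higher and 4 lower, and aminoacyl-tRNA synthetases 1 of 28 higher and 4 lower. The count of higher translation factors was 6 without starved glucose C and 5 without starved xylose C, and for the synthetases it was 2 without starved glucose C and none without starved xylose A or starved glucose B.

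Protein breakdown went the other way. Of 38 proteasome genes tested, 25 were lower and none higher on xylose, with a median log2 fold change of -0.34, beside 19.2% of all genes lower. The catalytic-core subunit pre7 had 79.8, 91.3 and 99.4 CPM in starved xylose, against 156, 131 and 153 CPM in starved glucose (log2 fold change -0.70 ± 0.09, SE), and the ATPase subunit rpt4 averaged 79.8 ± 1.89 CPM on xylose and 125 ± 14.2 CPM on glucose (SD, n = 3 each). Autophagy and vacuolar protease genes had 11 of 33 lower and 4 higher with a median of -0.15, and the higher count was 2 without starved xylose C. The 11 lower include ape3 of the locus stretch above. One proteasome gene was called higher without starved xylose C and 1 without starved glucose C.

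Urate oxidase and the purine transporter PHBOTO_001733 were not called between the sugars. Urate oxidase PHBOTO_000156, an enzyme of purine breakdown, had 18003, 15098 and 16830 CPM in starved xylose and 12496, 16490 and 17024 CPM in starved glucose. The purine transporter PHBOTO_001733 had 18197, 13107 and 15927 CPM in starved xylose and 11551, 14596 and 14767 CPM in starved glucose. In both the groups overlapped (log2 fold changes 0.12 ± 0.13 and 0.21 ± 0.13, SE; adjusted p = 0.478 and 0.214). Of 26 genes of purine, allantoate and urea use, 2 were higher and 3 lower, beside 23.0% and 19.2% of all genes, with a median of -0.01; the lower count was 1 without starved xylose B or without starved glucose C, and 7 by DESeq2. Allantoicase dal2, a later step of purine use, was higher on xylose at 785 ± 82.9 CPM, against 501 ± 166 CPM on glucose (SD, n = 3 each; log2 fold change 0.65 ± 0.17, SE, adjusted p = 0.00689). Amino acid permeases and peptide transporters had 4 of 29 higher and 6 lower, with a median of -0.01. The largest fall there was the amino acid transporter PHBOTO_000798, with 13.4, 12.6 and 13.8 CPM in starved xylose, against 186, 186 and 137 CPM in starved glucose (log2 fold change -3.68 ± 0.13, SE, adjusted p = 2.42e-12).

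Ammonium uptake and assimilation had 5 of 9 genes higher and none lower, beside 23.0% and 19.2% of all genes, with a median of 0.34, and 3 higher in the fit of the 6 starved libraries. The NAD-dependent glutamate dehydrogenase gdh2, which releases ammonium from glutamate in S. cerevisiae, averaged 479.6 ± 68.2 CPM on xylose and 333 ± 35.1 CPM on glucose (SD, n = 3 each; log2 fold change 0.52 ± 0.11, SE). The ammonium transporter mep2 reached 3722 ± 238 CPM on xylose and 3320.0 ± 44.1 CPM on glucose (SD, n = 3 each) and was not called (adjusted p = 0.129). In amino acid biosynthesis 24 of 67 genes were higher and 8 lower, with a median of 0.15. The branched-chain aminotransferase bat1 had 1251, 1201 and 1334 CPM in starved xylose and 459, 557 and 693 CPM in starved glucose (log2 fold change 1.15 ± 0.12, SE, adjusted p = 2.72e-06). Threonine synthase thr4 had 513, 536 and 549 CPM in starved xylose, against 141, 211 and 208 CPM in starved glucose (log2 fold change 1.51 ± 0.12, SE). In sulfur assimilation 8 of 21 were higher and 2 lower, led by met16, the reductase of activated sulfate, at 17.7 ± 1.28 CPM on xylose and 6.28 ± 0.867 CPM on glucose (SD, n = 3 each; log2 fold change 1.49 ± 0.11, SE).

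Of 50 chromatin and DNA replication genes tested, 29 were higher on xylose, 2 were lower and 19 were not called, beside 23.0% higher and 19.2% lower over all genes, with a median log2 fold change of 0.35, and 7 of the 8 core histone genes tested were higher, with a median of 0.83. The histone H4 gene hhf1, which encodes part of the nucleosome core, had 12462, 11261 and 11142 CPM in starved xylose and 4409, 4478 and 4762 CPM in starved glucose (log2 fold change 1.35 ± 0.08, SE, adjusted p = 5.26e-09). The H2A gene hta1, the H2B gene htb2 and the H3 gene hht1_4 gave log2 fold changes of 1.37 ± 0.09, 1.39 ± 0.09 and 1.20 ± 0.09 (SE). None of the 4 had a xylose library within the range of the glucose libraries. Of the other 42 replication genes, 22 were higher and 2 lower, with a median of 0.30, and the lower count was 1 without starved xylose A or starved xylose B and 0 without starved glucose B.

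Chaperone genes were often higher on xylose but varied between replicates. Of 31 tested, 18 were higher and 3 lower on xylose, beside 23.0% and 19.2% of all genes, 10 of the 18 changed at least 2-fold, beside 4.17% of all genes, and the median was 0.50; the summed level was 2.44-fold higher. The disaggregase hsp104, which pulls proteins out of aggregates, had 1656, 2399.8 and 4802 CPM in starved xylose libraries A, B and C, against 147, 271 and 744 CPM in starved glucose libraries A, B and C. The groups did not overlap, but the C library was the highest in both, and the log2 fold change of 2.93 ± 0.47 (SE, adjusted p = 0.000186) ranged from 2.39 to 3.82 over the other settings. The Hsp70 gene ssa4 showed the same order, with 6186, 7677 and 11938 CPM in starved xylose and 1218, 1732 and 3826 CPM in starved glucose (log2 fold change 1.93 ± 0.32, SE). The co-chaperones sti1 and aha1, which work with Hsp90, had log2 fold changes of 1.46 ± 0.22 and 1.42 ± 0.21 (SE). Among the other 23 chaperones, 17 were higher and 3 lower, with a median of 0.73, while of the 8 subunits of the cytosolic chaperonin 1 was higher and the median was -0.03. The lower count was 1 without starved xylose B and 0 without starved xylose C, starved glucose A or starved glucose B.

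Cell wall genes had 23 of 36 higher and 1 lower on xylose, beside 23.0% and 19.2% of all genes, with a median log2 fold change of 0.38; the lower count was 2 without starved xylose B or starved glucose B and 3 without starved glucose C. Chitin deacetylases, which turn chitin into chitosan, gave 4 of 6 higher, all at least 2-fold, and 1 lower. Among them cda2_3 had 1834, 1195 and 1535 CPM in starved xylose and 407, 438 and 575 CPM in starved glucose (log2 fold change 1.68 ± 0.16, SE, adjusted p = 1.25e-06). Chitin synthases were higher for 7 of 13. The MAP kinase slt2, which in S. cerevisiae relays cell wall stress, had 986, 843 and 758 CPM in starved xylose, against 137, 168 and 223 CPM in starved glucose (log2 fold change 2.29 ± 0.18, SE, adjusted p = 6.89e-08). The groups of both genes were well apart. Over all protein kinases, 27 of 85 were higher and 12 lower with a median of 0.07, and the largest change was a predicted kinase, PHBOTO_001166, at 148 ± 15.6 CPM on xylose and 12.6 ± 2.78 CPM on glucose (SD, n = 3 each; log2 fold change 3.56 ± 0.16, SE). Mating and filament genes had 4 of 16 higher, a share close to the 23.0% of all genes, and none lower, among them kss1, a MAP kinase of the filamentation pathway in S. cerevisiae (log2 fold change 1.72 ± 0.20, SE), and 1 was called lower without starved glucose A.

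Of 144 transcription factors, 31 were higher and 18 lower, beside 23.0% and 19.2% of all genes. The potential zinc cluster factor PHBOTO_001242, had 989.8, 1421 and 1127 CPM in starved xylose and 4523, 4028 and 3960.2 CPM in starved glucose (log2 fold change -1.82 ± 0.13, SE, adjusted p = 2.04e-08). A second zinc cluster protein, PHBOTO_002497, was higher on xylose, at 16.2 ± 1.51 CPM, against 2.19 ± 1.56 CPM on glucose (SD, n = 3 each; log2 fold change 2.87 ± 0.29, SE). No target is assigned to either. Metal uptake genes had 7 of 21 lower and 1 higher. The largest falls were in fre3, fth1 and fet5, annotated as a ferric reductase, an iron transporter and an iron transport multicopper oxidase (log2 fold changes -3.54 ± 0.30, -1.34 ± 0.15 and -1.32 ± 0.12, SE). The single higher gene, the zinc transporter zrt1, overlapped between groups and was not called without starved xylose A, starved glucose A or starved glucose B. It was not called in the fit of the 6 starved libraries either (adjusted p = 0.0561). Without starved xylose C or without starved glucose C, 2 metal genes were higher. Outside the lists, the monocarboxylate transporter PHBOTO_004541 had 5.11, 6.92 and 5.96 CPM in starved xylose and 439.7, 409 and 381 CPM in starved glucose (log2 fold change -6.08 ± 0.15, SE, adjusted p = 2.77e-14).

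**Figure D4:**
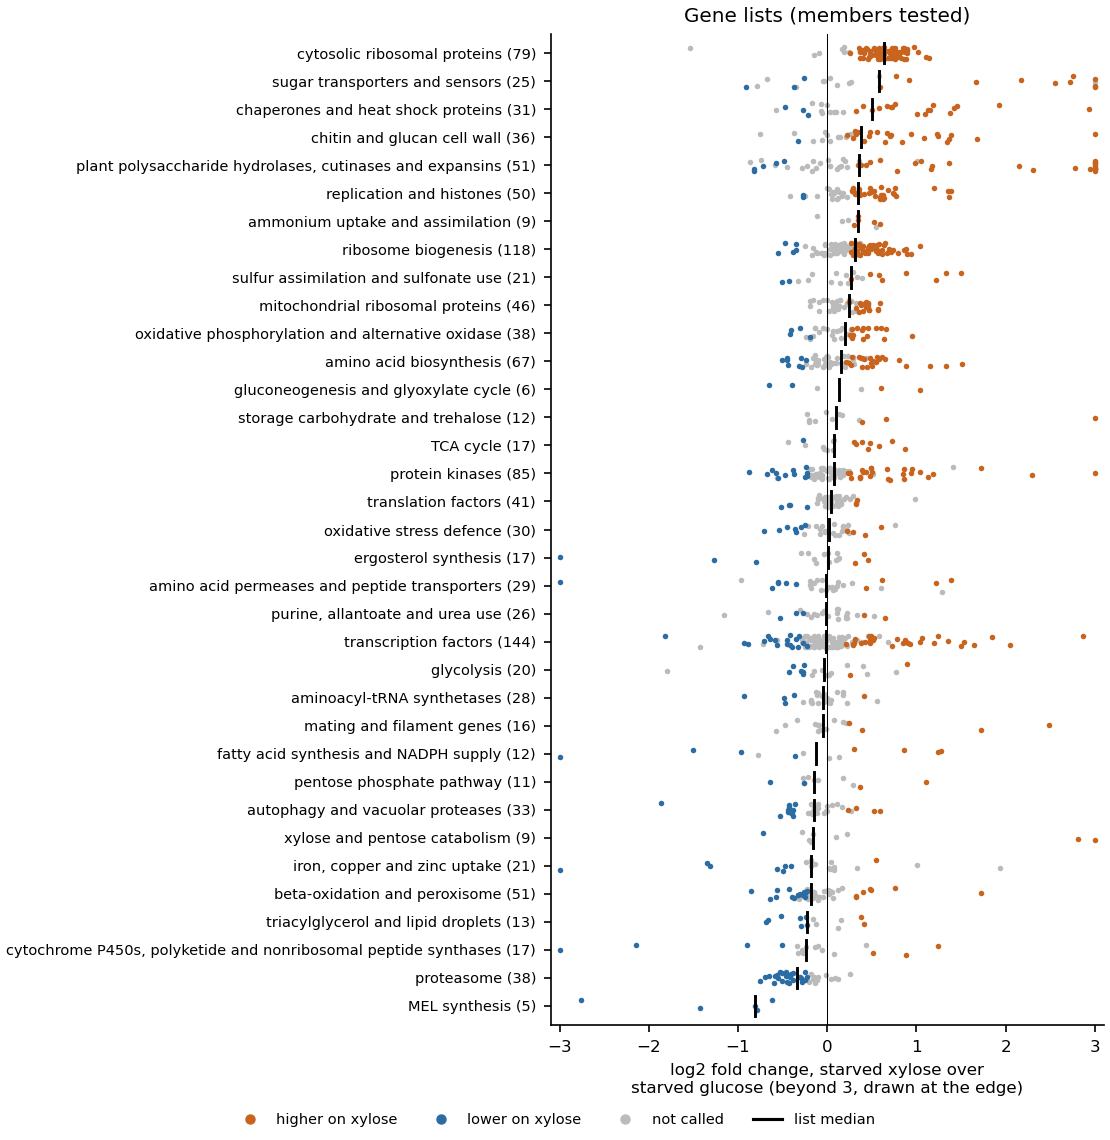
Each point is a tested gene of a list, placed by its log2 fold change, starved xylose over starved glucose, with values beyond 3 drawn at the edge; colours give the call, black bars the list median and numbers in brackets the genes tested. Cytosolic ribosomal proteins lie almost wholly to the right (72 of 79 higher) and proteasome and MEL genes to the left (25 of 38 and 5 of 5 lower).

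Storage carbohydrate genes had 3 of 12 higher and none lower, and oxidative stress genes 4 of 30 higher and 7 lower. Over all genes, 23.0% were higher and 19.2% lower. In the storage list, 2 were lower without starved xylose C and 1 without starved glucose B or starved glucose C, and 2 with DESeq2's scaling. One of its 3 higher genes, the glycogen debranching enzyme PHBOTO_000620, rests on 40 reads in starved xylose and 2 in starved glucose. That is a ratio of 15.2 with an exact 95% interval of 3.95 to 130 that covers counting error only. For oxidative stress genes the higher count was 2 without starved xylose C or starved glucose A and 7 without starved glucose C.

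The sugar difference of starvation was compared with that of exponential growth, where the libraries are separate samples. In exponential growth 1203 genes (20.7%) differed between xylose and glucose, 577 (9.94%) higher and 626 (10.8%) lower on xylose. Genes called in both phases numbered 613, of which 287 moved the same way, 190 higher and 97 lower on xylose. Those 287 are 11.7% of the calls in starvation and 23.9% of the calls in exponential growth. The other 326 moved in opposite directions, 210 higher on xylose in starvation and lower in growth and 116 the reverse. A direct test of the difference between the phases called 2218 genes (38.2%), 1262 (21.7%) with a higher xylose to glucose ratio in starvation and 956 (16.5%) with a lower one, and 1625 of the 2446 genes called in starvation (66.4%) were among them. Both tests use the same starved libraries, and the starved difference is part of the second. A larger share among genes called in starvation therefore follows in part from how they were picked.

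Some genes kept the direction of the xylose difference in both phases. The xylanase PHBOTO_006039 differed by a log2 fold change of 8.17 in starvation and 7.54 in exponential growth, which did not pass the test of the difference (adjusted p = 0.0543, and 0.0406 and 0.0128 without starved xylose B and without starved glucose B). By DESeq2 its difference between the phases was called (adjusted p = 0.0224). The difference at snf3 was 6.94 in starvation and 9.07 in growth, at gcy1_2 4.87 and 5.48, at xks1 2.81 and 4.52, and at xyl2 3.26 and 2.49, and for each of the 4 the phases differed. The transaldolase PHBOTO_006510 averaged 1196 ± 89.6 CPM in exponential xylose and 13.9 ± 0.387 CPM in exponential glucose (SD, n = 3 each), so its log2 fold change was 6.42 in growth and 1.10 in starvation. In contrast, the arabinofuranosidase PHBOTO_004942 differed by 6.51 in starvation and 2.42 in growth, and pgu1 by 5.63 and 3.37.

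Other differences were found in 1 phase or changed sign. The locus stretch was not lower on xylose in growth, where 0 of its 14 genes were called lower and 3 were called higher, and 8 of the 14 averaged under 1 CPM on both sugars. For fas2 the exponential levels were 20.4 ± 1.06 CPM on xylose and 13.6 ± 1.06 CPM on glucose (SD, n = 3 each), a log2 fold change of 0.58. For the difference between phases, 12 of the 14 genes were called, beside 38.2% of all genes. The 14 were picked by their starved difference, which enters that test. The MEL gene mac1 was lower on xylose in starvation and higher in growth at low levels, 4.41 ± 0.498 CPM on xylose and 1.05 ± 0.0976 CPM on glucose (SD, n = 3 each; log2 fold change 2.08). The carboxylase acc1 had a log2 fold change of -1.50 in starvation and 0.40 in growth. The reverse held for the alternative oxidase PHBOTO_002482, with 104 ± 9.65 CPM in exponential xylose and 902 ± 128 CPM in exponential glucose (SD, n = 3 each; log2 fold change -3.11). For pck1 the log2 fold change in growth was -2.00, for mae1 -2.12, for slt2 -1.72, for cda2_3 -1.61, for bat1 -1.16, for hsp104 -1.82 and for mal31 -3.68, while each was higher on xylose in starvation.

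Several lists were called in opposite directions in the 2 phases. The TCA cycle had 8 genes higher and 1 lower on xylose in starvation, and 0 higher and 8 lower in growth. Of 46 mitochondrial ribosomal proteins, 18 were higher and 0 lower in starvation and 0 higher and 14 lower in growth. Of 118 ribosome biogenesis genes, 56 were higher and 5 lower in starvation and 0 higher and 15 lower in growth. Over all genes, 23.0% were higher and 19.2% lower in starvation, and 9.94% higher and 10.8% lower in growth. The lower share of ribosome biogenesis in growth was near that of all genes. The higher counts of both lists dropped without starved xylose A, as given above. Cytosolic ribosomal proteins, with 72 higher in starvation, had 0 higher and 0 lower in growth. For the difference between phases, 71 of the 79 were called, beside 38.2% of all genes. Histone hhf1, higher on xylose by 1.35 in starvation, had a log2 fold change of -0.21 in growth that was not called (adjusted p = 0.0818). The ammonium transporter mep2 was called in growth and not in starvation, with 633 ± 27.0 CPM on xylose and 257 ± 16.0 CPM on glucose (SD, n = 3 each; log2 fold change 1.30), and the difference between phases was called (adjusted p = 3.67e-06). The reductase xr1 was lower on xylose in starvation and not called in growth (adjusted p = 0.0614), and the phases differed (adjusted p = 0.000301).

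**Figure D5:**
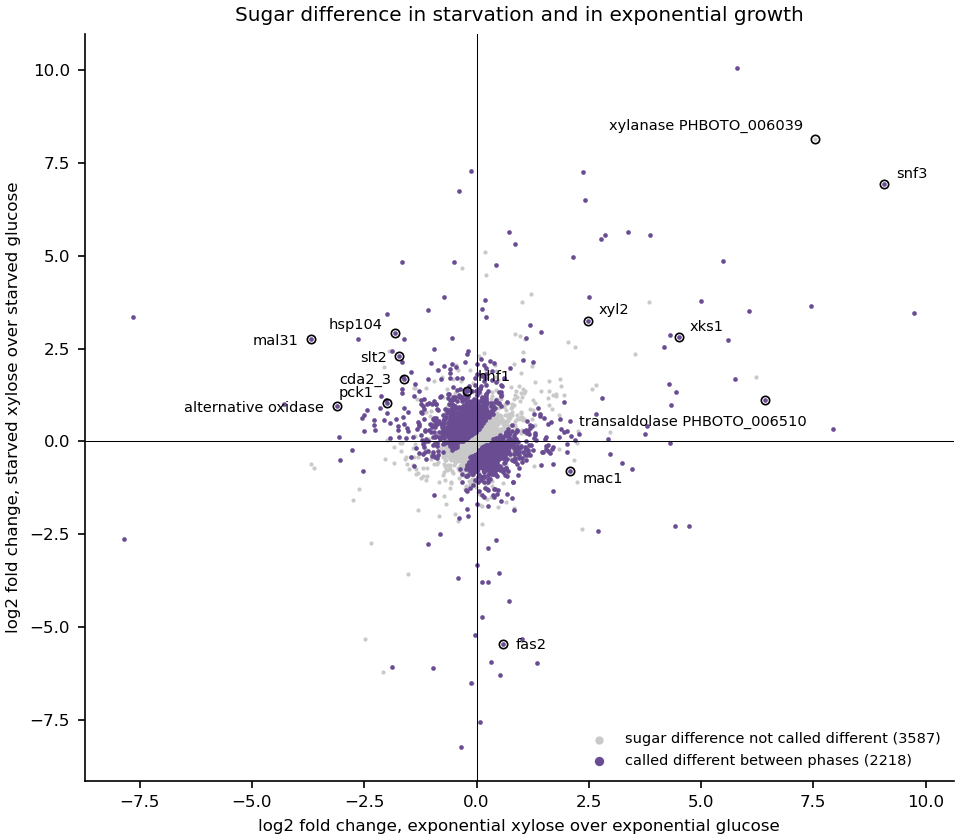
Each point is 1 of the 5805 genes tested, with the log2 fold change of xylose over glucose in exponential growth on the x axis and in starvation on the y axis. Purple genes (2218) were called for a difference between phases and grey genes (3587) were not; fas2 is low only on the y axis, while hsp104, slt2, pck1, the alternative oxidase and mal31 lie at upper left, where the sign turns.

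The authors' deposited table gives the same starved comparison for 5877 loci and calls 2654 at an adjusted p under 0.05, 1303 higher and 1351 lower on xylose. Of those, 2386 were also called here, all 2386 in the same direction.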

How the data were processed

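Polyadenylated RNA of 12 cultures was sequenced after a stranded TruSeq mRNA library preparation, per the labels' protocols. The submitters' processing notes name bcl2fastq 2.20.0.422, CASAVA, Trim Galore 0.6.1, cutadapt 2.3, HISAT2 2.2.1 and DESeq2; no read counter, strand option, build or gene model set is named in the sources used here, so overlapping and near-identical genes are uncertain. The table deposited by the authors holds raw counts for 6689 loci, normalized counts (a signal in which each library's counts are divided by 1 size factor) for 5877 loci, and, per the file headers, the authors' log2 fold changes and their p-values with adjusted p-values.

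From the deposited raw counts, loci were kept by edgeR's filterByExpr (a minimum count of 10, which came to 0.395 CPM in 3 libraries, and a minimum total of 15). The 5805 kept loci were scaled by TMM and fitted with edgeR 4.0.16's quasi-likelihood test in R 4.3.3 over all 12 libraries (8 residual degrees of freedom), with Benjamini-Hochberg adjustment over all 5805 and a threshold of 0.05. The fold change is xylose over glucose, SE is its size divided by the square root of F, and the phase difference is the starved minus the exponential log2 fold change. CPM use the TMM-scaled totals. On simulated counts of 5781 genes for the starved comparison, 76.1%, 94.0% and 98.5% of genes changed 1.5-, 2- and 4-fold were called. Of the calls there, 5.29% were false. The labels name A, B and C biological replicates without saying how cultures were started, and counting intervals cover counting error only.

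Named genes were the largest changes among called genes of at least 20 CPM without overlap, every member of lists of up to 12 genes, up to 4 called members of longer lists with the largest change plus the member with the most reads, the genes with the most reads, and members of runs of neighbouring loci; PHBOTO_001497 lies outside this rule and was chosen after its values were seen. The gene lists came from symbols and product names in the table, and the members and lists were chosen with earlier results of these data known. Alternatives were other scalings, DESeq2 1.42.0, no filter, the 6 starved libraries alone, a replicate block, a 2-fold requirement and leaving out each starved library.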

Additional observations from a re-analysis of the deposited data

Results flagged for a closer look

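For 21 of the genes whose values in both phases are given above, the xylose to glucose difference of starvation differed from that of exponential growth in a direct test of that difference (edgeR's quasi-likelihood test, adjusted over all 5805 genes, n = 3 libraries in each of the 4 groups). Other genes named above pass that test too and are not listed. Each value below is the starved minus the exponential log2 fold change.

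Among genes of xylose use, the change was -1.70 for xks1, 0.77 for xyl2 and -1.07 for xr1. It was -2.13 for the sensor gene snf3, 6.44 for the maltose permease mal31 and -0.61 for the dehydrogenase gcy1_2. It was -5.32 for the transaldolase PHBOTO_006510 (adjusted p = 1.29e-10), 4.09 for the arabinofuranosidase PHBOTO_004942 and 2.26 for pgu1. Among lipid genes it was -6.04 for fas2 (adjusted p = 8.38e-14), -2.87 for mac1 and -1.90 for acc1. It was 4.06 for the alternative oxidase PHBOTO_002482, 3.04 for pck1, 3.36 for mae1, 4.01 for slt2 and 3.29 for cda2_3. It was also 2.31 for bat1, 4.75 for hsp104 (adjusted p = 5.68e-05) and 1.57 for hhf1. For mep2 it was -1.13.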

How the results depend on the processing

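The 2446 genes called in starvation (1333 higher and 1113 lower on xylose) were 2475 with DESeq2 size factors, 2446 with upper-quartile scaling, 2450 without a filter and 2642 by DESeq2, with 49.2%, 52.2%, 54.9% and 48.9% of them higher on xylose, against 54.5% as reported. A fit of the 6 starved libraries alone, which has fewer samples to estimate the spread, called 1613, of which 711 were lower. It lost 818 of the genes called as reported. Replicates correlated less within the starved groups (Spearman 0.979 to 0.992) than within the exponential groups (0.996 to 0.997). The reported fit estimated the spread over all 12 libraries together, so it may understate the spread of the starved groups. Requiring a 2-fold change left 320, with 242 higher and 78 lower. Leaving out single starved libraries gave 2130 to 2752 genes in starvation and 2040 to 2552 for the phase difference. No gene called both as reported and under one of these alternatives changed sign. In the fit of the 6 starved libraries the higher counts were 5 for mitochondrial ribosomal proteins, 33 for ribosome biogenesis and 9 for oxidative phosphorylation, against 18, 56 and 16 as reported.

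Deviations of starved samples with the same letter correlated at -0.03, 0.06 and 0.16 for A, B and C, the last being the highest of all pairs. The letters were not taken as pairs, and whether they mark a shared batch cannot be told. With the letter as a replicate block, 2364 genes were called in starvation, 1189 in exponential growth and 2162 for the phase difference, and starved xylose B and starved xylose C correlated best with their own letter, B by a narrow margin, while starved xylose A did not.

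Of the genes named, urate oxidase PHBOTO_000156, not called, had a log2 fold change of -0.0098 to 0.20 over the fits without single libraries, the lowest being without starved glucose A. In the simulation 76.1% of 1.5-fold changes were called, and smaller changes were not simulated, so a gene not called may still differ. The simulation gave all groups the same spread per gene, so recovery may be lower in the starved groups, whose replicates varied more.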
